A study of Mus musculus with 6 samples.

Results

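Expression of 10 imprinted genes was followed in primary mouse mesangial cells, which hold the glomerular capillaries of the kidney in place, with and without TGF-β1, the secreted factor that promotes scarring. The genes were H19, Meg3, Rian, Cdkn1c, Grb10, Dlk1, Mest, Peg3, Plagl1 and Ndn, found by gene symbol, and all 10 had a row among the 19730 rows of the RNA-Seq table. There were 3 Control libraries and 3 TGF-β1 libraries. Both groups were the same kind of cell, at passages 3 to 6, in Dulbecco's medium holding 20% serum and glucose at 25.5 mM. Treatment lasted 72 h, with TGF-β1 at 10 ng/ml. Genotype and mouse strain are not given in the sources used here, nor is it stated that the replicates came from separate animals or cultures. The p-values therefore measure the spread between these libraries, which may be technical. The cells had been passaged in high glucose and are a culture model of the mesangium. Values are FPKM, fragments per kilobase of transcript per M (mega) mapped fragments.

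Imprinted genes are expressed mainly from the copy inherited from the mother or mainly from the copy inherited from the father. The choice is set in the germ line by DNA methylation of imprinting control regions, which lie within clusters of such genes and act on several of them together. Many of these genes act on fetal growth, with genes expressed from the maternal copy often restraining growth and genes expressed from the paternal copy often favouring it, and many are turned down after birth. Of the genes followed here, H19, Meg3, Rian, Cdkn1c and Grb10 are known to be expressed mainly from the maternal copy, and Dlk1, Mest, Peg3, Plagl1 and Ndn from the paternal copy. FPKM values do not separate the parental copies, so imprinting itself was not measured.

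A mean of 1 FPKM or more was needed for testing, and 9 genes reached it. Of these, 5 fell with TGF-β1 (H19, Cdkn1c, Plagl1, Peg3 and Ndn), 1 rose (Rian) and 3 were not called (Meg3, Grb10 and Mest). None of these 3 had an unadjusted p under 0.05 in limma. Among all 11898 tested rows 48.1% were called at a limma adjusted p under 0.05, 24.5% higher and 23.6% lower with TGF-β1. Dlk1 lay below the limit. In 6 of the 9 genes, those that were called, the Control and TGF-β1 libraries did not overlap, as in 59.4% of all tested rows (29.9% higher and 29.5% lower with TGF-β1). The median change of the 9 genes was -0.35 on the log2(FPKM + 1) scale, beside -0.02 over all tested rows, and the median absolute change was 0.75 beside 0.40. By parental copy, 2 of the 5 maternally expressed genes fell and 1 rose, and 3 of the 4 tested paternally expressed genes fell and 0 rose, so genes of both kinds were among those that fell. In a rescaling of the libraries to the summed protein-coding rows (300 nt or longer), the median change over all rows moved by -0.17, and the calls over all rows moved from 2911 higher and 2810 lower to 2015 higher and 3927 lower. The 10 genes kept their direction in that scaling.

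**Figure D1:**
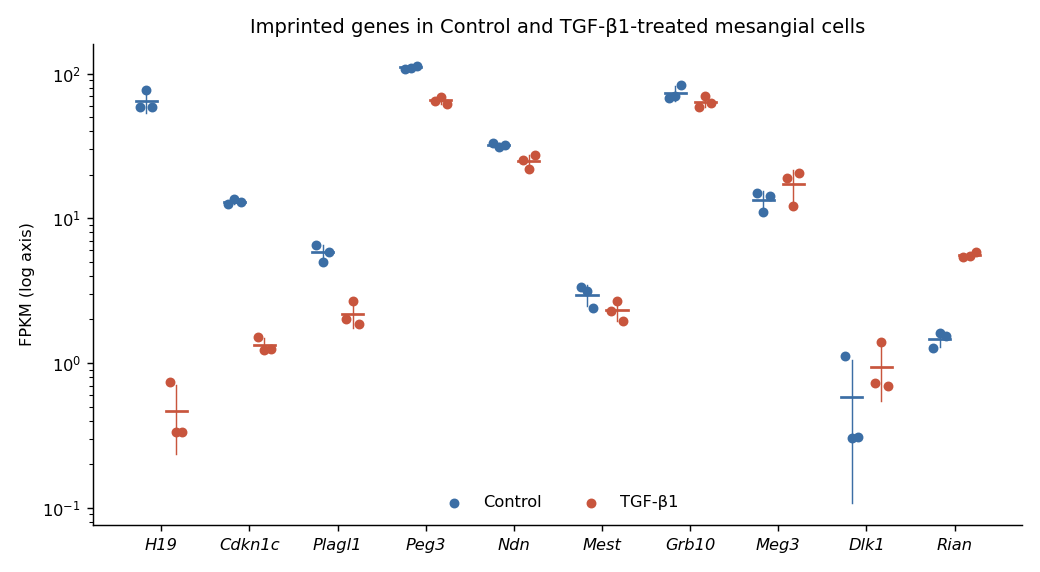
FPKM of the 10 imprinted genes in each library, on a log axis, with Control in blue and TGF-β1 in red. Points are libraries, horizontal lines are means and vertical lines are 1 SD (n = 3). H19 lay at 58.4 to 77.2 FPKM in Control and at 0.332 to 0.743 FPKM with TGF-β1, while the libraries of Grb10, Mest, Meg3 and Dlk1 overlapped between groups.

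H19, a long non-coding RNA that is abundant in fetal tissue, had the largest change of the 10 genes. The gene, whose transcript named in the row is annotated as a lincRNA, lies on mm9 chr7:149761434-149764048, on the minus strand. Its level was 58.4, 77.2 and 58.4 FPKM in the Control libraries and 0.743, 0.332 and 0.335 FPKM with TGF-β1. Every treated library was far below every Control library. The mean fell from 64.7 ± 10.9 to 0.470 ± 0.237 FPKM (SD, n = 3), a ratio of 137.5, and the log2 change was -5.48 (SE 0.163, adjusted p = 7.63e-06 by limma). Its level went from percentile 87.3 of tested rows in Control to percentile 1.75 with TGF-β1, and its absolute change exceeded that of 99.8% of them. At the recovered depth the values correspond to about 1315 to 1773 fragments in each Control library and to 7.0 to 17.1 fragments in each treated library, so the treated level is known much less precisely. The log2 change ranged from -5.61 to -5.35 when each library was left out in turn. In bulk RNA, fewer cells that express a gene and less RNA per cell cannot be told apart, and this holds for each gene below.

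H19 is also the precursor of miR-675, whose hairpin lies in an exon of the annotated transcript named in the table, on mm9 chr7:149762969-149763052. The mature RefSeq sequences are shown because the fall of the host was the largest in the group. Capitals mark the seed, bases 2 to 8, which pairs with target RNAs. The 2 arms have different seeds.
mmu-miR-675-5p: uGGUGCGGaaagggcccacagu
mmu-miR-675-3p: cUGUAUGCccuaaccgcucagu
The table has no row for this miRNA, so the measured fall is that of the host transcript alone. In all, 8 annotated miRNA genes lie inside the 10 genes on the same strand, in H19, Meg3, Rian and Mest, and 0 of them have a row.

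Cdkn1c encodes p57, an inhibitor of cyclin-dependent kinases that holds cells in G1, and its loss is known in an overgrowth syndrome. It lies 880.2 kb from H19 on the same chromosome (mm9 chr7:150644255-150646955, minus strand), in a neighbouring cluster with its own control region. Control libraries gave 12.6, 13.5 and 13.04 FPKM, and TGF-β1 libraries gave 1.51, 1.23 and 1.25 FPKM. All 3 treated libraries were far below all 3 Control libraries. The mean fell 9.81-fold, from 13.04 ± 0.468 to 1.33 ± 0.155 FPKM, with a log2 change of -2.59 (SE 0.0923, adjusted p = 1.25e-05 by limma). The related inhibitors did not follow it together. Cdkn1a, which encodes p21, rose from 248.8 ± 2.54 to 754.7 ± 32.3 FPKM (1.60 on the log2 scale, adjusted p = 3.47e-05 by limma). Cdkn1b, which encodes p27, fell from 33.0 ± 0.309 to 27.5 ± 1.79 FPKM (-0.26 on the log2 scale, adjusted p = 0.0331 by limma). The call of Cdkn1b was lost when any library other than TGF-β1 replicate 2 was left out, with limma adjusted p-values of 0.0517 without Control replicate 3 to 0.101 without TGF-β1 replicate 3.

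Plagl1, also called Zac1, encodes a zinc finger transcription factor that restrains proliferation and acts on other imprinted genes. On mm9 it spans chr10:12810497-12851500 (plus strand). Its level was 6.51, 5.02 and 5.89 FPKM in Control and 2.01, 2.66 and 1.87 FPKM with TGF-β1. The lowest Control library was above the highest treated library. The mean fell 2.66-fold, from 5.81 ± 0.751 to 2.18 ± 0.426 FPKM (-1.10 on the log2 scale, SE 0.141, adjusted p = 0.00129 by limma). The gene has 27 annotated transcripts, and the row is named by a non-coding transcript of 478 nt, so which isoform the value describes is not known.

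Peg3 encodes a large DNA-binding zinc finger protein that acts in growth, maternal behaviour and apoptosis. It had the highest Control level of the 10 genes and lies on mm9 chr7:6656603-6683132 (minus strand). The Control libraries were at 108, 110.0 and 113 FPKM and the TGF-β1 libraries at 64.9, 69.4 and 61.4 FPKM. Both groups were tight and well apart. The mean fell 1.69-fold, from 110.2 ± 2.67 to 65.2 ± 3.97 FPKM, a log2 change of -0.75 (SE 0.0763, adjusted p = 5.00e-04 by limma).

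The promoters of Plagl1 and Peg3 are shown because both genes fell and because PLAGL1 is a transcription factor. Each window is from RefSeq (GRCm38.p6) and runs from 250 bases before to 50 bases after the start of the gene, 5′ to 3′ on the strand of the gene. The letters searched for on both strands are in capitals: GGGGCCCC, a palindrome bound by PLAGL1, TGCCGC or its reverse complement GCGGCA, bound by ZFP57 when methylated, and CAGAC or GTCTG, bound by SMAD proteins downstream of TGF-β1. Plagl1 is on chr10:13090582-13090881 and Peg3 on chr7:6730370-6730669.
Plagl1: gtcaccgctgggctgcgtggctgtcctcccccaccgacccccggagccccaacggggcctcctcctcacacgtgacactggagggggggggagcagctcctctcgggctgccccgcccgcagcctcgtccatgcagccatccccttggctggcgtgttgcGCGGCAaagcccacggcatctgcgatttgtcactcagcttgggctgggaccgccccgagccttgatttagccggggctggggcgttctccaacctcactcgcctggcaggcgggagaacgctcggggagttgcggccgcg
Peg3: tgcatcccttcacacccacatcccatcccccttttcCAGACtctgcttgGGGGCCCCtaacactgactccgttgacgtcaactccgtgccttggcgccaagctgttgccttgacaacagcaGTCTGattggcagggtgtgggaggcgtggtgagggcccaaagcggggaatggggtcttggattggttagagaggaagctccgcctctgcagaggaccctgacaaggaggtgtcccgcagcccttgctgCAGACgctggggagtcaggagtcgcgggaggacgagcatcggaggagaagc
The Plagl1 window held 26 CpG dinucleotides, with a GC content of 70.7%. Of the 32817 mouse promoter windows searched, 84.5% had as many CpG or fewer. It had 1 match to the ZFP57 letters, which 11.6% of windows have, and none to the others. The Peg3 window held 13 CpG, 1 match to the PLAGL1 letters, which 1.1% of windows have, and 3 to the SMAD letters, which 49.6% of windows have. No matches overlapped. The median window has 7 CpG and a GC content of 52.7%. A match describes the letters only, and no binding was measured in the data used here.

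Ndn encodes necdin, a growth suppressor of postmitotic neurons that is lost in Prader-Willi syndrome. It is a single-exon gene of 1652 nt with 1 annotated transcript, on mm9 chr7:69493163-69494814, which makes it the row of the 10 with the least doubt about isoforms. Control libraries gave 33.0, 30.9 and 31.9 FPKM and treated libraries 25.3, 22.1 and 27.3 FPKM. The groups were separate, but by a small distance. The mean fell 1.28-fold, from 31.9 ± 1.02 to 24.9 ± 2.66 FPKM (-0.35 on the log2 scale, SE 0.0963, adjusted p = 0.0250 by limma). This call was the weakest of the 6. It was lost without Control replicate 1 (adjusted p = 0.0727), without Control replicate 2 (0.0545), without Control replicate 3 (0.0529), without TGF-β1 replicate 1 (0.0671) and in replicates 1 and 3 alone (0.0740), all by limma. The RefSeq promoter window of Ndn held 11 CpG and none of the letters searched.

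Rian was the only one of the 9 tested genes to rise. It is a long non-coding RNA of the Dlk1-Meg3 cluster and carries many small nucleolar RNAs. On mm9 it spans chr12:110842155-110899919 (plus strand), with 13 snoRNA genes inside it. The Control libraries were at 1.28, 1.62 and 1.54 FPKM and the TGF-β1 libraries at 5.39, 5.52 and 5.81 FPKM. All treated libraries were at more than 3 times the Control libraries' highest value. The mean rose 3.77-fold, from 1.48 ± 0.177 to 5.57 ± 0.213 FPKM, a log2 change of 1.41 (SE 0.102, adjusted p = 1.41e-04 by limma). Rian moved from percentile 5.42 of tested rows in Control to percentile 31.0 with TGF-β1.

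The RefSeq promoter window of Rian (GRCm38.p6 chr12:109603695-109603994) is shown because it is the gene that rose. It has no CpG, against 26 in Plagl1, a GC content of 49.3% and 1 match to the SMAD letters, in capitals.
Rian: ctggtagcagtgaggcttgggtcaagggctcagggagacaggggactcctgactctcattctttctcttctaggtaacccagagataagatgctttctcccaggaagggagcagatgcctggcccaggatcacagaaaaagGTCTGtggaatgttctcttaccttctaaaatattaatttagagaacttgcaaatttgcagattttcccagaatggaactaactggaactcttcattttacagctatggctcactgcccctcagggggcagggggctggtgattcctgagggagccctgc
The annotation also places miR-370 inside Rian, outside the exons of the transcript named in the table. Its arms are shown with seeds in capitals, because the host rose while the miRNA has no row in the RNA-Seq table. The study also sequenced miRNAs of both groups, and those data were not used here.
mmu-miR-370-5p: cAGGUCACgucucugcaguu
mmu-miR-370-3p: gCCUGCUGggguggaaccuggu
The seeds of both arms differ from each other and from those of miR-675.

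Meg3 lies 32.2 kb before Rian in the same orientation (mm9 chr12:110779211-110809936) and is a maternally expressed non-coding RNA known as a growth suppressor. Its level was 15.0, 11.1 and 14.2 FPKM in Control and 18.9, 12.2 and 20.6 FPKM with TGF-β1, and the groups overlapped. The log2 change was 0.32 with a 95% interval of -0.20 to 0.83 and was not called (adjusted p = 0.263 by limma). The replicate 2 library was the lowest of its group in both groups, with deviations of -0.25 and -0.44 from the group mean on the log2 scale. Without TGF-β1 replicate 2 the log2 change of Meg3 was 0.54 and was called (adjusted p = 0.0374 by limma), and in replicates 1 and 3 alone it was 0.41 (adjusted p = 0.0432 by limma). The 95% interval of Rian, 1.16 to 1.66, lies above that of Meg3, but the difference between these changes was not tested. A lincRNA annotated on the opposite strand, Gm17639, overlaps Meg3, and whether reads were assigned by strand is not stated.

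Dlk1, the paternally expressed ligand-like membrane protein of the same cluster and an inhibitor of adipocyte differentiation, lies 77.7 kb before Meg3 (mm9 chr12:110691033-110701546). It was barely expressed, at 1.12, 0.304 and 0.311 FPKM in Control and 0.727, 1.39 and 0.695 FPKM with TGF-β1. The groups overlapped and the highest Control library was above 2 of the treated libraries. In the test without the limit on mean FPKM, where 30.5% of 19730 rows were called, the log2 change was 0.32 (SE 0.241, adjusted p = 0.401 by limma). Notch1, a receptor that DLK1 is known to inhibit, fell from 5.19 ± 1.11 to 1.56 ± 0.271 FPKM (-1.26 on the log2 scale, adjusted p = 0.00145 by limma).

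Grb10 encodes an adaptor that restrains signalling from the insulin and IGF1 receptors. It is on mm9 chr11:11830511-11938686 (minus strand) and was at 67.3, 69.4 and 83.6 FPKM in Control and 59.0, 70.4 and 62.7 FPKM with TGF-β1. These values overlapped, with TGF-β1 replicate 2 above 2 Control libraries. The log2 change was -0.19, with a 95% interval of -0.47 to 0.087 (adjusted p = 0.215 by limma), which leaves room for a fall of the size seen in Ndn. After the rescaling described above the log2 change was -0.38 and was called (adjusted p = 0.0495 by limma). The receptors Insr and Igf1r were at 4.79 ± 0.587 and 4.94 ± 1.05 FPKM in Control and at 3.91 ± 0.450 and 5.17 ± 0.256 FPKM with TGF-β1, and neither was called.

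Mest encodes a hydrolase-like protein of mesoderm and is on mm9 chr6:30673547-30698457 (plus strand). It was at 3.33, 3.16 and 2.41 FPKM in Control and 2.29, 2.70 and 1.97 FPKM with TGF-β1, with overlap between the groups. The log2 change was -0.26 (SE 0.144, adjusted p = 0.189 by limma). The end of Mest overlaps Copg2 on the opposite strand, and Copg2 rose from 10.3 ± 0.155 to 14.5 ± 0.875 FPKM (0.46 on the log2 scale, adjusted p = 0.00390 by limma). Reads from the shared stretch cannot be told apart without strand.

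The promoter windows of the genes that were not called were searched for the same letters. Mest has 3 RefSeq windows, with 8, 17 and 17 CpG, and those with 17 CpG, whose starts are 3 bases apart, each held 2 matches to the ZFP57 letters. Of the Grb10 windows, the more CpG-rich had 45 CpG and 1 match to the ZFP57 letters, and 98.3% of all windows had as many CpG or fewer. The other Grb10 window had 9 CpG and 1 match to the SMAD letters. Meg3 has a window with 13 CpG and 1 match each to the ZFP57 and SMAD letters, and another with 1 CpG and 1 SMAD match. The Dlk1 window held 9 CpG and 3 SMAD matches. Matches to each of these letters thus lay in windows of genes that changed and of genes that were not called, except for the PLAGL1 letters, which were found in Peg3 alone among the 12 windows of 8 genes.

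The treatment changed the order of the genes by level, taken as FPKM, which is per length. In Control the order was Peg3, Grb10, H19, Ndn, Meg3, Cdkn1c, Plagl1, Mest, Rian and Dlk1. Libraries of the neighbours Grb10 and H19 overlapped, as did those of Meg3 and Cdkn1c, and other neighbours were separate. With TGF-β1 the order was Peg3, Grb10, Ndn, Meg3, Rian, Mest, Plagl1, Cdkn1c, Dlk1 and H19. Here Peg3 and Grb10 overlapped, and so did Mest and Plagl1, Cdkn1c and Dlk1, and Dlk1 and H19. H19 thus went from the third place to the last, and Rian from the ninth place to the fifth. Levels between genes carry the doubt about which transcript a row describes, which is greatest for Mest, Plagl1, Meg3 and Dlk1.

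In the Ndn and Cdkn1c clusters, called genes moved in both directions. Elsewhere few genes could be tested: 0 others in the H19 and Dlk1-Meg3 clusters, and 1 other in each of the Mest, Peg3 and Grb10 clusters. Whether those clusters moved as blocks cannot be told from so few genes. Of 28 other genes listed in the same clusters, 21 had a row and 10 could be tested, of which 4 rose and 3 fell, beside 24.5% higher and 23.6% lower over all tested rows. In the Peg3 cluster both tested genes fell. Zim1, a maternally expressed zinc finger gene 7.4 kb from Peg3, went from 9.45, 14.5 and 11.4 to 5.97, 5.39 and 6.86 FPKM, with no overlap (log2 change -0.84, adjusted p = 0.00697 by limma). Usp29 of that cluster was at 0.114 ± 0.0662 FPKM in Control and 0.0651 ± 0.0586 FPKM with TGF-β1.

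In the Ndn cluster the direction was mixed. Snrpn, which encodes a splicing protein and lies 2208 kb from Ndn, went from 5.20, 4.60 and 3.82 to 10.8, 10.3 and 10.6 FPKM, with all treated libraries above all Control libraries (log2 change 1.07, adjusted p = 5.62e-04 by limma). The ubiquitin ligase gene Ube3a rose from 11.9 ± 1.47 to 15.4 ± 1.49 FPKM (0.36 on the log2 scale, adjusted p = 0.0435 by limma). The call of Ube3a was lost in 9 of 14 alternatives. These included leaving out any library other than Control replicate 2, with limma adjusted p-values from 0.0794 without TGF-β1 replicate 3 to 0.117 without Control replicate 1, and the rescaling (0.278). Peg12, at 1.33 ± 0.473 and 1.66 ± 0.135 FPKM, was not called, and Mkrn3 was under 1 FPKM. Ndn, Snrpn, Peg12 and Mkrn3 are all paternally expressed, so genes known to be expressed from the same parental copy of that cluster fell, rose and were not called.

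Cobl, an actin nucleator in the Grb10 cluster 197.9 kb away, was at 29.1, 28.2 and 28.9 FPKM in Control and at 4.24, 3.59 and 3.53 FPKM with TGF-β1. This was a 7.60-fold fall (log2 change -2.64, adjusted p = 9.86e-06 by limma) beside a gene, Grb10, that was not called. Ddc of the same cluster was under 1 FPKM in every library, at 0.439 ± 0.121 and 0.328 ± 0.0400 FPKM. Without Control replicate 3, Ddc was called lower (log2 change -0.18, adjusted p = 0.0435 by limma).

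Igf2, the paternally expressed growth factor paired with H19 and 72.6 kb from it, was almost silent. It was at 0.627, 0.349 and 0.359 FPKM in Control and at 0.353, 0.459 and 0.214 FPKM with TGF-β1. The groups overlapped (log2 change -0.11 without the limit on mean FPKM, adjusted p = 0.515 by limma). No rise of Igf2 was thus measured beside the fall of H19.

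In the Cdkn1c cluster Nap1l4, a nucleosome assembly protein gene, rose from 43.4 ± 3.82 to 59.1 ± 1.16 FPKM (0.44 on the log2 scale, adjusted p = 0.00718 by limma). Osbpl5 fell from 27.1 ± 2.06 to 22.0 ± 0.612 FPKM (-0.29 on the log2 scale, adjusted p = 0.0297 by limma). The call of Osbpl5 was lost when any library other than Control replicate 1 was left out, with limma adjusted p-values of 0.0660 to 0.0895, and that of Nap1l4 after the rescaling (0.0875). The tetraspanin gene Cd81, at 530.0 ± 43.4 and 542.5 ± 22.4 FPKM, and Tssc4, at 28.6 ± 4.90 and 30.1 ± 10.1 FPKM, were not called. Slc22a18, 12.7 kb from Cdkn1c, was low, at 0.749, 0.753 and 0.770 FPKM in Control and at 0.0687, 0 and 0.139 FPKM with TGF-β1. Its log2 change in the test without the limit was -0.72 (adjusted p = 7.46e-04 by limma). Kcnq1, Phlda2, Ascl2 and Tspan32 were under 1 FPKM in every library and were not called. In the Dlk1-Meg3 cluster Dio3, the deiodinase that inactivates thyroid hormone, was at 0.757, 0.325 and 0.445 FPKM in Control and 0.109, 0 and 0.0553 FPKM with TGF-β1 (log2 change -0.51 without the limit, adjusted p = 0.0191 by limma), and Rtl1 was under 1 FPKM throughout. The call of Dio3 was lost without Control replicate 3 (limma adjusted p = 0.0590) and without TGF-β1 replicate 1 (0.0583), replicate 2 (0.0746) or replicate 3 (0.0727). Ins2, Mirg, Klf14, Zfp264, Kcnq1ot1, Magel2 and Snurf were not analysed here.

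**Figure D2:**
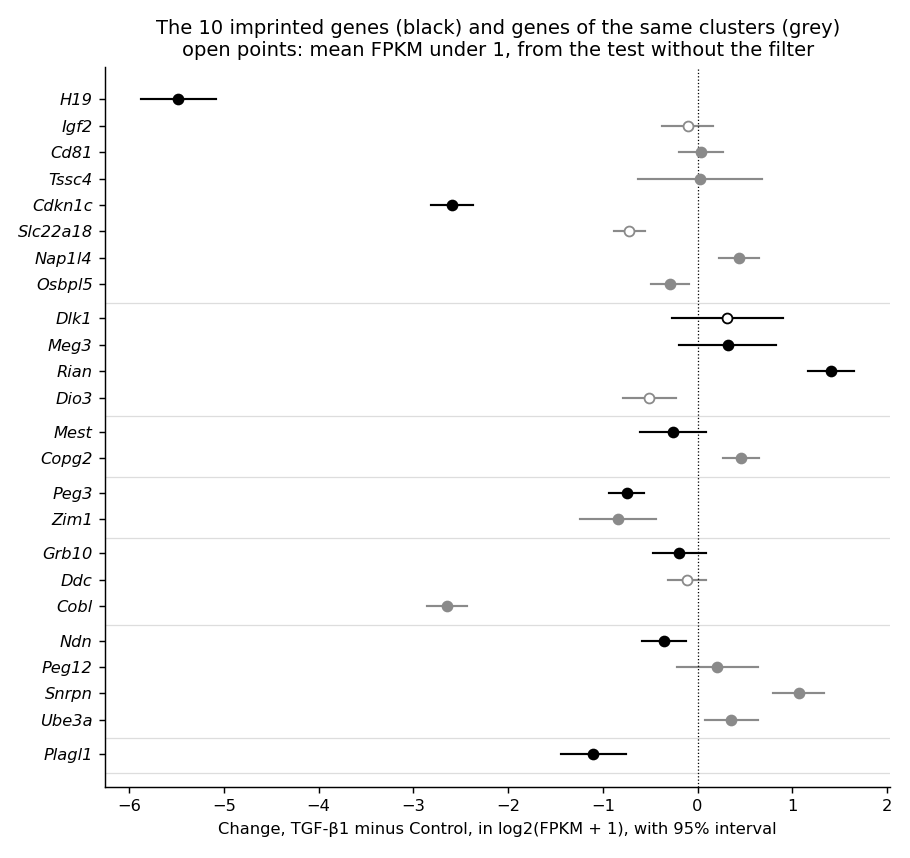
Change with TGF-β1 of the 10 imprinted genes (black) and of genes of the same clusters (grey), in log2(FPKM + 1) units, with 95% intervals from limma and light lines between clusters. Open points had a mean under 1 FPKM. H19 (-5.48), Cobl (-2.64) and Cdkn1c (-2.59) lie to the left of the others, and Rian (1.41) and Snrpn (1.07) to the right.

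Genes next to the imprinted genes, imprinted or not, were then described in a window of 500 kb on either side. This window was chosen after values had been seen. Of 9 tested genes around H19, 4 fell and 1 rose. On the Igf2 side of H19 the nearest tested gene was 443.6 kb away, so little of that side could be tested. The genes that fell all lay on the side of H19 away from Igf2. They were Gm14492 (19.4 to 2.89 FPKM), the troponin gene Tnnt3 (15.0 to 2.93 FPKM), the actin-binding protein gene Lsp1 (381.4 to 218.1 FPKM) and the mitochondrial ribosomal protein gene Mrpl23 (128 to 92.0 FPKM). The log2 changes were -2.39, -2.03, -0.81 and -0.48, all smaller in size than that of H19. The call of Mrpl23 was lost without Control replicate 2 (limma adjusted p = 0.113), Control replicate 3 (0.0819), TGF-β1 replicate 1 (0.112) or TGF-β1 replicate 3 (0.1097). Around Cdkn1c, 5 of 11 tested genes rose and 1 fell. The increases included Cars (38.3 to 106.8 FPKM), a tRNA synthetase gene, Tnfrsf22 (17.9 to 39.1 FPKM) and Tnfrsf23 (9.85 to 45.3 FPKM), decoy receptor genes, and Dhcr7 (8.15 to 17.1 FPKM), of cholesterol synthesis. Cdkn1c thus fell among tested genes of which more rose than fell. Slc22a18, 12.7 kb from Cdkn1c and under the limit, was also lower with TGF-β1, as given above.

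Around Peg3, 2 of 6 tested genes fell and 0 rose. These were Zim1 and Zfp28, the latter going from 4.30 to 2.69 FPKM (-0.52 on the log2 scale, adjusted p = 0.00419 by limma). Around Plagl1, 2 of 8 tested genes rose and 2 fell. Its nearest tested neighbour Ltv1, 46.9 kb away, rose from 17.7 to 29.2 FPKM (0.69 on the log2 scale, adjusted p = 0.00159 by limma). Around Mest, 3 of 8 rose and 0 fell. Meg3, Rian, Dlk1, Grb10 and Ndn each had 3 or fewer tested genes in the window. The shares over all tested rows, 24.5% higher and 23.6% lower, are the background of these small counts.

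**Figure D3:**
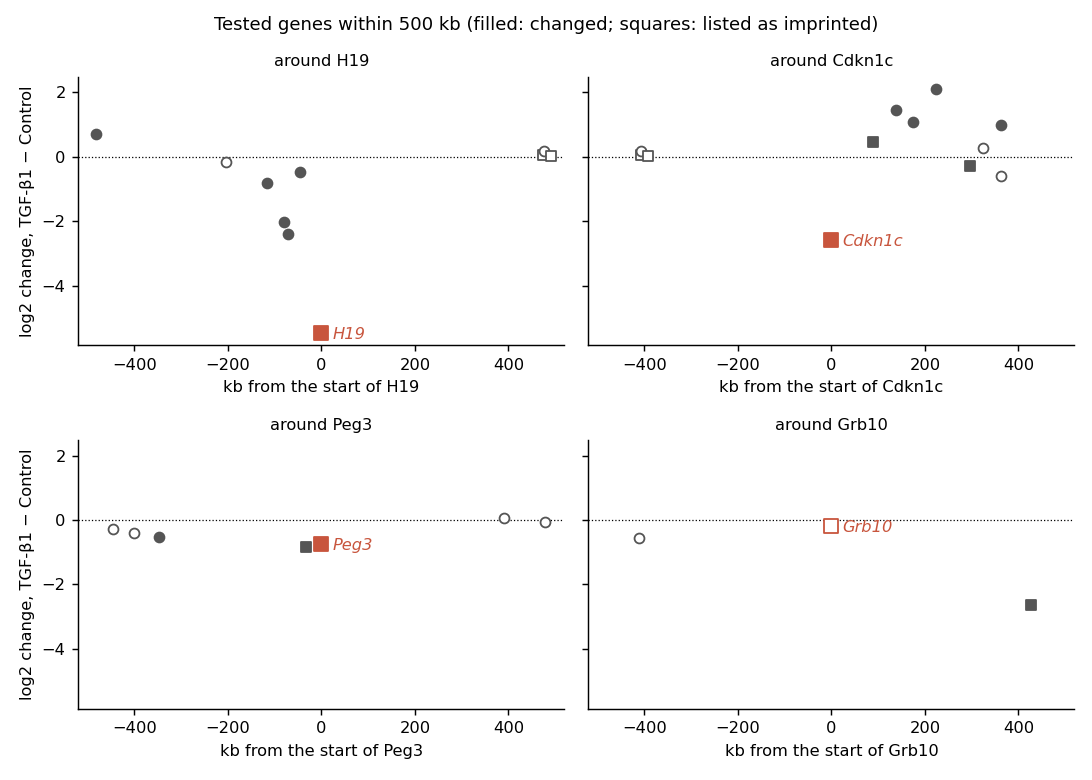
Change with TGF-β1 of tested genes within 500 kb of H19, Cdkn1c, Peg3 and Grb10, by distance in kb from the start of that gene and in log2(FPKM + 1) units. Red squares are the genes named above each panel, filled points of either colour were called by limma and squares are genes listed as imprinted. The 5 nearest genes on the left of H19 lie below 0, and H19 itself at -5.48.

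Imprinted genes of other clusters were compared as a wider group. Together with the cluster genes above, 23 other imprinted genes could be tested, and 7 rose, 7 fell and 9 were not called, with a median log2 change of 0.03 and a median absolute change of 0.42. The 9 genes included 1 with an unadjusted p under 0.05. Among the 14 listed as maternally expressed 5 rose and 5 fell, and among the 8 listed as paternally expressed 1 rose and 2 fell. These labels are general ones, and whether each gene is imprinted in mesangial cells was not measured. Gnas, known to be expressed from either copy depending on the promoter, was counted under neither. Beside these counts stand the shares of all tested rows, 24.5% higher and 23.6% lower.

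In those other clusters the largest fall was that of Dcn, the matrix proteoglycan decorin, which went from 103.6, 102.7 and 106.4 to 3.79, 3.27 and 2.84 FPKM (-4.62 on the log2 scale, adjusted p = 2.69e-06 by limma). Ppp1r9a fell from 2.08 ± 0.146 to 0.589 ± 0.0448 FPKM, Sgce, a sarcoglycan gene, from 52.0 ± 4.37 to 38.6 ± 3.90 FPKM, and Zrsr1 from 10.2 ± 0.306 to 7.94 ± 0.189 FPKM. The genes that rose were Igf2r, the receptor that clears IGF2, from 5.48 ± 0.742 to 9.38 ± 0.627 FPKM, Blcap from 17.6 ± 1.07 to 28.3 ± 0.901 FPKM, and Gnas, which encodes the stimulatory G protein alpha subunit, from 211.8 ± 15.9 to 312.7 ± 9.36 FPKM. By limma, Igf2r changed by 0.69 (adjusted p = 0.00372), Blcap by 0.66 (adjusted p = 8.98e-04) and Gnas by 0.56 (adjusted p = 0.00271) on the log2 scale. Each of these 7 genes had groups that did not overlap, as in 59.4% of all tested rows, and the 7 were named because they were called. The call of Sgce was lost without Control replicate 1 (limma adjusted p = 0.0538), Control replicate 2 (0.0599), TGF-β1 replicate 1 (0.0562) or TGF-β1 replicate 3 (0.0572), and that of Zrsr1 without TGF-β1 replicate 1 (0.0559).

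Factors that keep imprints in place were read from the same test. Of 16 listed, 10 could be tested, 0 rose and 2 fell, where 24.5% of all tested rows were called higher and 23.6% lower. Zfp57, the zinc finger protein that protects methylated imprinting control regions, went from 40.3, 43.5 and 56.0 to 30.9, 31.9 and 26.3 FPKM (-0.62 on the log2 scale, adjusted p = 0.0134 by limma). Arid4a went from 18.5, 21.3 and 17.2 to 11.5, 15.7 and 11.8 FPKM (-0.52 on the log2 scale, adjusted p = 0.0246 by limma). The call of Arid4a was lost without Control replicate 1 (limma adjusted p = 0.0617), Control replicate 2 (0.0785), TGF-β1 replicate 1 (0.0839) or TGF-β1 replicate 3 (0.0815), and that of Zfp57 in replicates 1 and 3 alone (0.0573). The maintenance methyltransferase Dnmt1 was at 6.84 ± 0.859 and 5.87 ± 0.392 FPKM, the insulator protein gene Ctcf at 27.2 ± 2.48 and 23.4 ± 1.72 FPKM, and the corepressor gene Trim28 at 435.0 ± 2.81 and 374.9 ± 62.7 FPKM, and none of these 3 was called. Trim28 was at 447.2 FPKM in TGF-β1 replicate 2 and at 338.7 and 338.8 FPKM in the other treated libraries, and without replicate 2 its log2 change was -0.36 and was called (limma adjusted p = 0.0160). Of 11 genes known as partners or relatives of the imprinted genes, 1 rose (Cdkn1a) and 2 fell (Notch1 and Cdkn1b), as described above, beside 48.1% of all tested rows called in either direction.

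Summed levels of the mesangial, tubule and macrophage marker lists did not overlap between the groups. Of 9 listed mesangial markers 8 had a row, and their summed level was 1406 to 1705 FPKM in Control and 5285 to 6214 FPKM with TGF-β1, most of it Acta2 and Tagln. Pdgfrb of that list fell from 37.5 ± 4.82 to 29.2 ± 0.751 FPKM (log2 change -0.34, adjusted p = 0.0396 by limma), and Gata3, at 1.76 ± 0.882 and 1.03 ± 0.211 FPKM, was not called. Cspg4 rose from 0.0735 ± 0.0367 to 1.21 ± 0.257 FPKM (adjusted p = 9.51e-04 by limma without the limit). Des, Itga8 and Thy1 were under 1 FPKM in every library. The tubule list, with 5 of 8 genes measured, went from a sum of 115.1 to 148.2 FPKM to 6.37 to 7.67 FPKM, nearly all of it Cdh16, while Cdh1, Aqp2 and Slc12a1 were under 1 FPKM. In the test without the limit, Lrp2 fell from 1.43 ± 0.443 to 0.230 ± 0.0167 FPKM (adjusted p = 0.00369 by limma). Slc12a1 rose there from 0.0615 ± 0.0350 to 0.377 ± 0.118 FPKM (adjusted p = 0.0125 by limma). The macrophage list, with 5 of 6, went from 87.0 to 113.7 FPKM to 9.03 to 11.3 FPKM, most of it Cd14, with Ptprc and Itgam under 1 FPKM. Csf1r of that list fell from 6.27 ± 0.979 to 0.411 ± 0.156 FPKM (adjusted p = 8.56e-05 by limma). Cd68, at 2.79 ± 0.836 and 2.22 ± 0.448 FPKM, was not called. The 3 podocyte markers that could be tested all fell, Wt1 from 7.88 to 4.01 FPKM, Synpo from 12.3 to 7.88 FPKM and Podxl from 2.21 to 1.18 FPKM (adjusted p = 0.0110, 0.00242 and 0.0185 by limma), while Nphs1 was under 1 FPKM in every library. All 5 measured endothelial markers were under 1 FPKM. These sums and the called markers moved in the same libraries as H19, Cdkn1c, Plagl1, Peg3 and Rian, and their part in those changes was not tested.

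**Figure D4:**
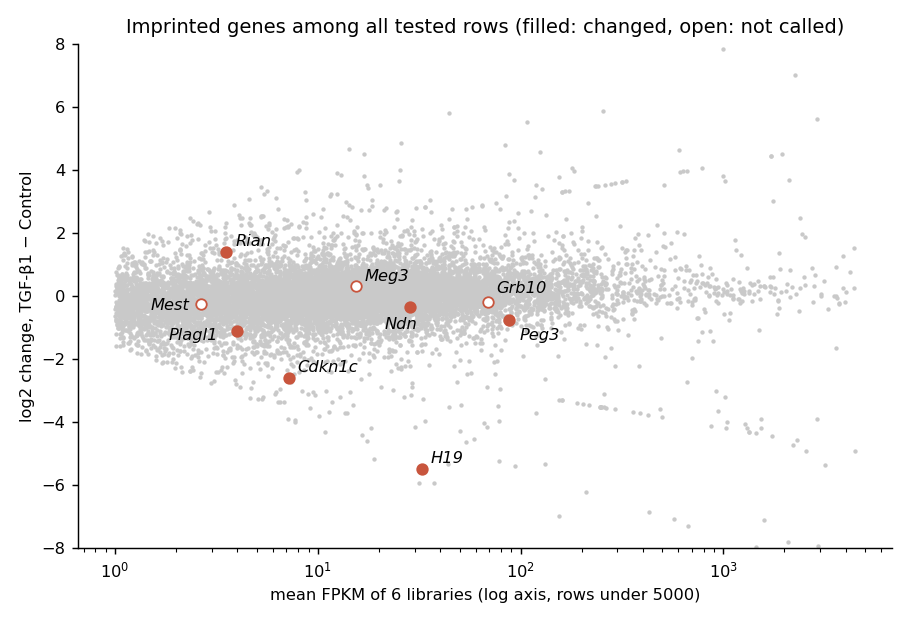
Change with TGF-β1 against mean FPKM (log axis) for tested rows (grey) and the 9 tested imprinted genes (red, filled where called by limma). Rows outside the plotted area number 25. H19 at -5.48 and Cdkn1c at -2.59 lie at the lower edge of the cloud for their level, and Grb10, Meg3 and Mest lie within it.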

How the data were processed

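RNA-Seq was available for 3 Control and 3 TGF-β1 libraries of primary mouse mesangial cells. After quality filtering, the authors mapped reads to mm9 with TopHat (the submitters' processing notes list TopHat2 2.0.11) and estimated the deposited FPKM values with Cufflinks, and no scaling between libraries is stated. Their own test was a count model. As counts were not used here, the test was limma 3.58.1 (R 4.3.3) on log2(FPKM + 1), with lmFit and eBayes with trend, two-sided and with Benjamini-Hochberg adjustment. It covered the 11898 rows whose mean reached 1 FPKM, and genes were called at an adjusted p under 0.05. The test was tried on simulated data. Low genes' changes are understated on this scale. Values for genes under the limit came from the same test without it, over 19730 rows.

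The 10 genes and the lists were chosen with earlier results of these data known. The text names all 10 genes, the measured genes of their clusters, up to 4 called genes per direction of the other lists, and neighbours. Insr, Igf1r, Dnmt1, Ctcf and Trim28 fall outside this rule and were named after their values were seen. Marker genes given with their own values also fall outside it, and their calls were not tried in the alternatives. Whether a row holds its gene or only the transcript named is not stated. In rows of genes with several transcripts 88.0% carry the first transcript of the mm9 annotation (GENCODE M1). A check used protein-coding rows whose named transcript had at least 600 nt and was much shorter than the longest. There, low values were whole fragments, within 0.1, for the longest length in 47.4 to 53.4% of rows. For the named length this held in 22.8 to 30.9%, where chance gives 20%. Mest, Plagl1 and Meg3 lay outside this check.

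Depth, recovered from FPKM steps with an assumed fragment of 200 nt, was 10.1 to 11.1 M fragments per library, with 99.5 to 99.9% of values whole. Fragment numbers cover counting error only. Pearson's r across rows ran from 0.876 to 0.940 inside groups and from 0.818 to 0.853 across them. Promoters (8 of 10 genes matched, H19 and Cdkn1c not) and miRNAs were from RefSeq, GRCm38.p6, and gene coordinates are mm9. Figures were drawn with matplotlib 3.10.9 in Python 3.11.15. The summed level of the podocyte marker list is not reported here.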

Additional observations from a re-analysis of the deposited data

How the results depend on the processing

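H19, Cdkn1c, Plagl1, Peg3 and Rian kept direction and call in all 14 alternatives (a pseudocount of 0.1, no limit or a mean FPKM of at least 3, quantile normalization, rescaling, each library left out, replicate block, replicates 1 and 3 alone, GC and length trend removed). Their log2 changes ranged from -6.89 to -5.28, -3.21 to -2.36, -1.38 to -0.83, -0.94 to -0.71 and 1.27 to 1.85. Ndn kept its direction, at -0.54 to -0.26, and its call in 9 of 14. Meg3 and Grb10 were called where stated above and Mest in none of 13. Dlk1, tried without the limit, was called in none of 12, and neither Mest nor Dlk1 could be tested at a mean FPKM of at least 3. With each library left out in turn, 4419 to 5446 rows, 5 to 7 of the imprinted genes and 10 to 13 of the other imprinted genes were called. Rescaling called 7 of the imprinted genes, and 5 of the other imprinted genes as higher and 8 as lower. Same-numbered libraries had correlations of deviations of 0.0921, 0.232 and 0.0853. Among differently numbered libraries, Control replicate 1 and TGF-β1 replicate 3 had 0.117, and the others were negative, from -0.194 to -0.0160. The main test did not pair the libraries, and the replicate block was tried as an alternative. With the replicate block 5391 rows, 6 imprinted genes and 13 other imprinted genes were called. The SE of Meg3 was 0.108 with the block, against 0.213 without it, and Meg3 was still not called (limma adjusted p = 0.0695). About 7.0 to 17.1 fragments per treated library limit H19, and 14.9 to 62.5 per library, by its longest transcript, limit Dlk1. Marker genes were not among the 42 other named genes that were tried. Of these 42, the calls lost by leaving out a library are given above. Changes of sign occurred only in genes that were not called. After quantile normalization these were Cd81 (-0.21), Tssc4 (-0.020), Igf2 (0.041), Usp29 (8.0e-04) and Ddc (0.033). After rescaling they were Cd81 (-0.16), Tssc4 (-0.16) and Igf1r (-0.095), and with the GC and length trend removed Trim28 (0.026). Cd81 was also at -0.062 in replicates 1 and 3 alone. With each library left out, Tssc4 ranged from -0.16 to 0.33, Cd81 from -0.030 to 0.087 and Igf1r from -0.029 to 0.21. Rescaling or quantile normalization brought calls of a fall for Trim28 (-0.42 and -0.44), and rescaling for Ctcf (-0.40) and Dnmt1 (-0.36). Replicates 1 and 3 alone also brought calls of a fall for Trim28 (-0.36, limma adjusted p = 0.0301) and Ctcf (-0.34, 0.0474). The block lost the calls of Cdkn1b (limma adjusted p = 0.0630) and Osbpl5 (0.0573). Other calls lost, as limma adjusted p-values, were those of Ube3a (0.219), Osbpl5 (0.271) and Mrpl23 (0.125) with the GC and length trend removed, Ube3a (0.0659) and Mrpl23 (0.0558) with no limit, Ube3a after quantile normalization (0.0527), and Cdkn1b (0.102), Osbpl5 (0.158), Dio3 (0.0807) and Zrsr1 (0.0822) in replicates 1 and 3 alone.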
